A study of Mus musculus with 18 samples.

Results

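The genes described here are the retinoid receptors and the retinoid handling genes of brown preadipocytes: Rara, Rarb, Rarg, Rxra, and Rxrb, which encode receptors, and Stra6, Crabp1, Crabp2, Rdh10, and Cyp26b1, which encode proteins of retinoid uptake, binding, synthesis, and clearance. They were chosen by symbol for what they are known to do, but with earlier results of these data known. They are 10 of the 48023 genes in the count table. All 10 were detected and passed the filter on low counts that left 15071 genes for testing. RNA-seq was performed on immortalized murine brown preadipocytes, a line of undifferentiated brown fat precursors made with the SV40 T antigen, harvested 4, 8, or 24 h after addition of vehicle (Veh) or of 200 ng/ml FGF6. FGF6 is a paracrine fibroblast growth factor. Each of the 6 groups held 3 libraries, all from the same line, and the vehicle libraries of the same time point served as the control. The labels do not say whether the 3 libraries of a group came from separate cultures, so the p-values measure the spread between libraries, which may be technical.

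Retinoids are the vitamin A derivatives. A cell can take up retinol from its carrier in blood through the membrane receptor STRA6. Retinol is oxidized to retinaldehyde, mainly by RDH10, and then to retinoic acid by enzymes of the ALDH1A family. Retinoic acid is carried by the cytoplasmic proteins CRABP1 and CRABP2, acts in the nucleus through RAR proteins paired with RXR proteins, and is removed by the CYP26 hydroxylases. RXR proteins also pair with PPARs, the vitamin D receptor, thyroid hormone receptors, and LXRs, and retinoids are known to affect both the differentiation of fat precursors and the expression of thermogenic genes.

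RAR and RXR pairs bind direct repeats of a 6-base element that are separated by a few bases, and the promoter of Rarb is the textbook example of a gene regulated through such a repeat. Promoter windows from RefSeq (build GRCm38.p6), which run from 250 bases before to 50 bases after an annotated start, were read for 8 of the 10 genes and counted 17 in all. Rdh10 and Crabp2 had no entry in that table. The windows were searched on both strands for direct repeats of the hexamer AGGTCA, its variant AGTTCA, the related form GGGTCA, or the related form GGTTCA, in any pairing, with 1, 2, or 5 bases between them. A repeat was found in 1 of these 17 windows, that of Rarb, and in 193 of 32851 windows of all genes (0.588%). It had 5 bases between the hexamers, and its 17 bases began 53 bases before the start (chr14:16575513-16575529, minus strand). The Rarb window is printed with the repeat in capitals. The windows of Crabp1 and Cyp26b1 are set beside it because these genes had a single start in that table and changed more than 4-fold under FGF6, Crabp1 upward and Cyp26b1 downward. A match describes the letters only and is not a bound site.
Rarb, chr14:16575427-16575726, minus strand: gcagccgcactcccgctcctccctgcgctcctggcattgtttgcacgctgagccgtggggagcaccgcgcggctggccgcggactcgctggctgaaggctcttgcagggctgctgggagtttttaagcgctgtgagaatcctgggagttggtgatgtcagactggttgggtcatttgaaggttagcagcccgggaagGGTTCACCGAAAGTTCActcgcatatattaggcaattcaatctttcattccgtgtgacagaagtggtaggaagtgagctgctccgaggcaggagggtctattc
Crabp1, chr9:54764498-54764797, plus strand: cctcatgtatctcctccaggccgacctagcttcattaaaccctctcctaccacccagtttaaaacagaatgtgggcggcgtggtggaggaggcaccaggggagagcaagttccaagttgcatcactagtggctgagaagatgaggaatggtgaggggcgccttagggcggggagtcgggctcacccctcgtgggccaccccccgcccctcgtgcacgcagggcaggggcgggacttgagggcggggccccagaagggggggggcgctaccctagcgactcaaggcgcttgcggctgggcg
Cyp26b1, chr6:84593761-84594060, minus strand: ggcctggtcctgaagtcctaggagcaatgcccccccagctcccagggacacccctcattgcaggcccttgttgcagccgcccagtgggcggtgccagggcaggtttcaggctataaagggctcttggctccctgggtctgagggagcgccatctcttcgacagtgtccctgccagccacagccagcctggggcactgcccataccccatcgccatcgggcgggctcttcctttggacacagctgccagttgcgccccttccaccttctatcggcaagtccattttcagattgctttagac
A lone hexamer of these 4 was present in 6 of the 17 windows, and in 43.7% of all windows. Neither the Crabp1 nor the Cyp26b1 window held a lone hexamer.

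Expression is given as CPM, the count of a gene scaled to the TMM-normalized total of its library, which makes libraries comparable but does not correct for gene length. The total count per library lay between 24327816 and 33471980, and 3 counts corresponded to between 0.0905 and 0.126 CPM. Libraries of a group differed by more than counting noise, with a chi-square per degree of freedom between 2.34 and 7.05 for 16 of 18 replicate pairs. The pairs with replicate 3 of Veh 24h stood apart at 34.5 and 37.6, and mitochondrial ribosomal RNA took 0.25% of the counts of that library against 0.0421% to 0.0903% of the other 17. Without it, all 10 genes kept their direction and their side of the threshold for FGF6 against vehicle at 24 h, and the log2 fold change moved by 0.25 for Stra6, 0.17 for Rarb, and at most 0.04 for the other 8 genes. In bulk RNA, fewer cells that express a gene and less RNA per cell cannot be told apart.

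FGF6 changed most of the 10 genes, and it changed them in both directions. An FDR under 0.05 was used as the threshold in edgeR's quasi-likelihood test, with adjustment over all 15071 genes. At 4 h, 3 genes rose (Stra6, Crabp1, and Rara) and 3 fell (Cyp26b1, Rxra, and Rarg), where 28.6% of all genes tested were higher and 34.2% lower. At 8 h, 4 rose (Stra6, Crabp1, Rdh10, and Rxrb) and 4 fell (Cyp26b1, Crabp2, Rxra, and Rara), against 32.4% and 38.4% of all genes. At 24 h, 4 rose (Stra6, Crabp1, Rdh10, and Rarg) and 4 fell (Cyp26b1, Crabp2, Rara, and Rxra), against 35.9% and 37.9%, and the counts at 24 h were again 4 and 4 without replicate 3 of Veh 24h. The share of the 10 genes that passed was thus near that of all genes. Changes of at least 2-fold were found upward in 1, 2, and 3 of the 10 genes at 4, 8, and 24 h (4.96%, 7.39%, and 7.44% of all genes) and downward in 1, 1, and 2 (6.38%, 10.9%, and 15.3%). The libraries of FGF6 and vehicle did not overlap for 6, 9, and 9 of the 10 genes, compared with 66.2%, 73.8%, and 74.8% of all genes. The median log2 fold change of the 10 genes was 0.00, -0.11, and -0.16 at 4, 8, and 24 h, and that of all genes tested was -0.05, -0.05, and -0.02.

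**Figure D1:**
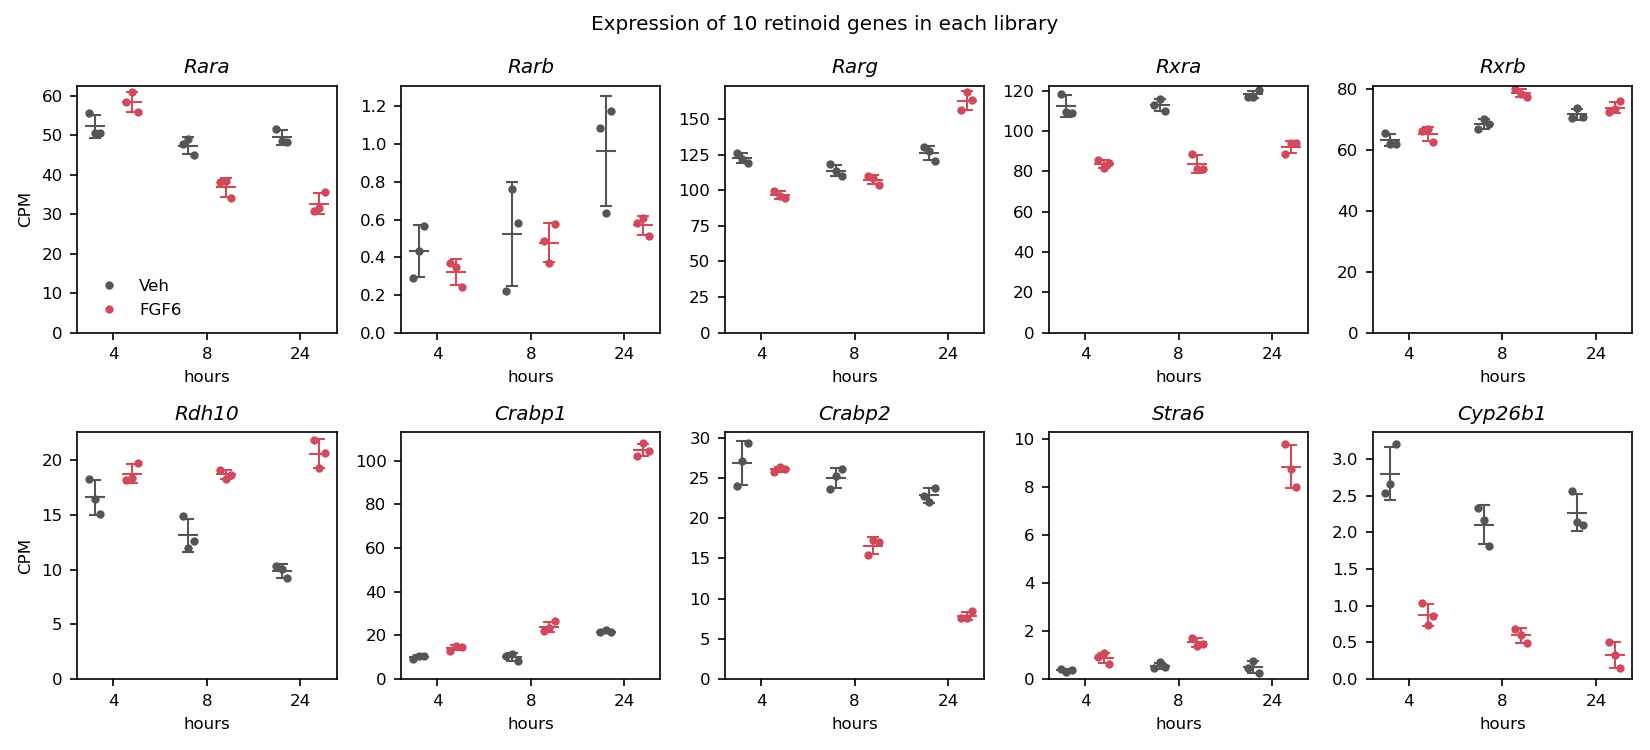
CPM of each gene in each of the 18 libraries at 4, 8, and 24 h. Points are libraries, and bars are the mean and SD of 3 libraries of vehicle (gray) or FGF6 (red). At 24 h the FGF6 libraries of Stra6 lie between 8.00 and 9.81 CPM and those of Cyp26b1 between 0.147 and 0.511 CPM, on opposite sides of the vehicle libraries.

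Stra6, which encodes a retinol uptake receptor, was low in vehicle-treated cells and rose at every time point. Its vehicle libraries stood at 0.422, 0.309, and 0.367 CPM at 4 h and its FGF6 libraries at 0.924, 1.08, and 0.65 CPM, a 2.45-fold difference (log2 fold change 1.29, SE 0.32, edgeR adjusted p = 0.0011). At 8 h, vehicle libraries held 0.442, 0.699, and 0.514 CPM and FGF6 libraries 1.73, 1.38, and 1.48 CPM (log2 fold change 1.46, SE 0.27, edgeR adjusted p = 2.82e-05). At 24 h, the vehicle libraries remained low at 0.455, 0.754, and 0.252 CPM, while the FGF6 libraries reached 9.81, 8.79, and 8.00 CPM. The groups overlapped at none of the times, and the 24 h values differed 17.2-fold (log2 fold change 4.11, SE 0.22, edgeR adjusted p = 1.06e-14). The change was 3.85 on the log2 scale without replicate 3 of Veh 24h, which held 6 counts of Stra6. The vehicle level rests on 6 to 25 counts per library, whereas the FGF6 level at 24 h rests on 218 to 269.

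The cellular retinoic acid binding proteins moved in opposite directions. Crabp1 rose at all times, from 9.21, 10.6, and 10.5 CPM in vehicle to 13.0, 15.2, and 14.7 CPM in FGF6 at 4 h (log2 fold change 0.50, SE 0.09, edgeR adjusted p = 4.83e-05). At 8 h, the vehicle libraries held 10.4, 11.5, and 8.18 CPM and the FGF6 libraries 22.1, 23.3, and 26.5 CPM, a 2.37-fold rise (edgeR adjusted p = 2.4e-12). At 24 h, 21.4, 22.5, and 21.4 CPM in vehicle stood against 102.3, 108.0, and 104.5 CPM in FGF6, a 4.82-fold difference (log2 fold change 2.27, SE 0.07, edgeR adjusted p = 1.34e-19). The lowest FGF6 library exceeded the highest vehicle library at each time, even though vehicle itself had risen by 24 h.

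Crabp2, whose product is known to hand retinoic acid to RAR, did not differ beyond the spread at 4 h, with 26.8 ± 2.72 CPM in vehicle and 26.1 ± 0.324 CPM in FGF6 (SD, n = 3), and overlapping libraries. The 95% interval of that difference ran from -0.17 to 0.09 on the log2 scale. At 8 h, vehicle libraries held 23.6, 25.3, and 26.2 CPM and FGF6 libraries 15.4, 17.3, and 17.0 CPM, 1.51-fold lower (log2 fold change -0.60, SE 0.07, edgeR adjusted p = 2.77e-08). At 24 h, the values were 22.7, 22.0, and 23.8 CPM in vehicle and 7.55, 7.61, and 8.44 CPM in FGF6, a 2.90-fold lower level (log2 fold change -1.53, SE 0.08, edgeR adjusted p = 3.04e-15). All FGF6 libraries at 8 and 24 h lay below all vehicle libraries.

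Rdh10, the retinol dehydrogenase of the first oxidation step, separated from vehicle with time. At 4 h, 18.3, 16.5, and 15.1 CPM in vehicle and 18.2, 18.4, and 19.8 CPM in FGF6 overlapped, and the difference did not pass (log2 fold change 0.18, SE 0.08, edgeR adjusted p = 0.0535). The call was near the threshold and depended on the fit, since 6 of the 8 alternative fits to all libraries of these groups made it (0.18 to 0.22), and library sizes alone (0.07) and upper-quartile factors (0.12) did not. It also passed without replicate 1 of Veh 4h (0.25) and without replicate 1 (0.24) or 2 (0.23) of FGF6 4h. At 8 h, vehicle libraries stood at 14.9, 12.0, and 12.6 CPM and FGF6 libraries at 19.1, 18.3, and 18.7 CPM (1.42-fold, edgeR adjusted p = 3.76e-06). At 24 h, they stood at 10.4, 10.1, and 9.21 CPM and at 21.9, 19.3, and 20.7 CPM (2.08-fold, log2 fold change 1.06, SE 0.08, edgeR adjusted p = 1.86e-11). The vehicle mean went from 16.6 to 13.2 to 9.88 CPM over the time course, while the FGF6 mean was 18.8, 18.7, and 20.6 CPM, and time points were not tested against each other within FGF6.

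Cyp26b1, a hydroxylase that inactivates retinoic acid, fell at all times. In vehicle it held 2.53, 2.66, and 3.21 CPM at 4 h, and in FGF6 1.04, 0.733, and 0.853 CPM, 3.21-fold lower (log2 fold change -1.68, SE 0.22, edgeR adjusted p = 3.61e-07). At 8 h, 2.34, 2.16, and 1.81 CPM stood against 0.684, 0.605, and 0.493 CPM (3.50-fold lower, edgeR adjusted p = 4.06e-07). At 24 h, 2.56, 2.14, and 2.10 CPM stood against 0.511, 0.322, and 0.147 CPM, 6.87-fold lower (log2 fold change -2.78, SE 0.28, edgeR adjusted p = 1.71e-09). The groups were apart at each time, but the FGF6 libraries at 24 h held only 14, 9, and 4 counts, and the 95% interval of the log2 fold change ran from -3.33 to -2.24. The change was -2.81 without replicate 3 of Veh 24h.

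Among the RAR genes, Rara and Rarg changed in opposite directions at 4 and at 24 h, each reversing between these times. Rara, a broadly expressed receptor, stood at 55.7, 50.6, and 50.7 CPM in vehicle and 58.5, 61.0, and 55.9 CPM in FGF6 at 4 h, a small rise (log2 fold change 0.16, SE 0.06, edgeR adjusted p = 0.0153). This call was lost with library sizes alone (0.06) and with upper-quartile factors (0.10), and also without replicate 2 (0.14) or replicate 3 (0.14) of Veh 4h. At 8 h, Rara was lower, at 38.2, 38.4, and 34.1 CPM against 47.9, 49.2, and 45.1 CPM in vehicle (log2 fold change -0.36, SE 0.06, edgeR adjusted p = 6.67e-06). By 24 h it held 30.8, 31.6, and 35.8 CPM against 51.7, 48.7, and 48.3 CPM, 1.52-fold lower (log2 fold change -0.60, SE 0.06, edgeR adjusted p = 1.53e-09). All FGF6 libraries were above vehicle at 4 h and below it at 8 and 24 h.

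Rarg, the most abundant RAR transcript here, started with a fall and ended with a rise. At 4 h, its FGF6 libraries held 99.7, 95.6, and 94.3 CPM against 126.0, 122.1, and 119.4 CPM in vehicle, 1.27-fold lower (log2 fold change -0.34, SE 0.04, edgeR adjusted p = 2.89e-08). At 8 h, 110.0, 108.4, and 103.6 CPM stood just under 118.2, 113.2, and 110.0 CPM, and the difference did not pass (log2 fold change -0.08, SE 0.04, edgeR adjusted p = 0.0573). At 24 h, 156.3, 169.2, and 163.2 CPM stood above 130.1, 127.7, and 120.6 CPM, 1.29-fold higher (log2 fold change 0.37, SE 0.04, edgeR adjusted p = 3.51e-09). With library sizes alone or upper-quartile factors, the difference at 8 h did pass, at -0.15 and -0.13, and it also passed without replicate 3 of Veh 8h (-0.11) or replicate 1 of FGF6 8h (-0.10).

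Rarb, itself a classical target of retinoic acid, was barely detected, at 6 to 31 counts per library. Its libraries overlapped between FGF6 and vehicle at 4 h (0.431 ± 0.138 CPM in vehicle and 0.321 ± 0.0679 CPM in FGF6) and at 8 h (0.522 ± 0.276 and 0.478 ± 0.103 CPM; SD, n = 3). At 24 h, its 1.09, 0.633, and 1.18 CPM in vehicle lay above 0.584, 0.607, and 0.514 CPM in FGF6, but the difference did not pass (log2 fold change -0.73, SE 0.35, edgeR adjusted p = 0.062). It passed without replicate 2 of Veh 24h (-0.97), and the value was -0.57 without replicate 3. The intervals at 4 h (-1.25 to 0.45) and 8 h (-0.90 to 0.63) span changes in both directions, so that small changes of Rarb were not detectable at this depth. Of its 5265 exonic bases, 2020 overlap Top2b and Gm48162 on the opposite strand, and the strand setting of the counting is not given in the sources used here. Reads from that stretch cannot be assigned with certainty, whereas the other 9 genes share no exonic bases with a neighbor.

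Rxra, which encodes a partner of many nuclear receptors, was lower in FGF6 by a similar amount at all times. It held 118.5, 109.5, and 109.1 CPM in vehicle and 85.5, 81.5, and 83.9 CPM in FGF6 at 4 h, 1.34-fold lower (log2 fold change -0.43, SE 0.04, edgeR adjusted p = 9.46e-10). At 8 h, 112.9, 115.8, and 109.8 CPM stood against 88.8, 81.2, and 81.1 CPM (1.35-fold lower, edgeR adjusted p = 5.33e-10). At 24 h, 117.0, 116.9, and 120.2 CPM stood against 88.5, 93.8, and 94.0 CPM (1.28-fold lower, edgeR adjusted p = 1.19e-08). No FGF6 library reached the lowest vehicle library.

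Rxrb, the other RXR gene of the group, differed from vehicle only at 8 h by this test. At that time its FGF6 libraries held 79.9, 78.4, and 77.3 CPM, above the 66.9, 70.2, and 68.5 CPM of vehicle, a 1.15-fold rise (log2 fold change 0.20, SE 0.04, edgeR adjusted p = 5.67e-05). At 4 h (63.1 ± 1.99 CPM in vehicle and 65.2 ± 2.25 CPM in FGF6; SD, n = 3) and 24 h (71.6 ± 1.89 and 73.8 ± 1.83 CPM) the libraries overlapped. The 95% intervals of these differences were -0.03 to 0.12 and -0.03 to 0.12 on the log2 scale, whereas those of Rxra were -0.51 to -0.35 and -0.44 to -0.28 at the same times. The small difference at 4 h passed without replicate 3 of FGF6 4h (0.11) and turned negative with library sizes alone (-0.05) and with upper-quartile factors (-0.01).

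**Figure D2:**
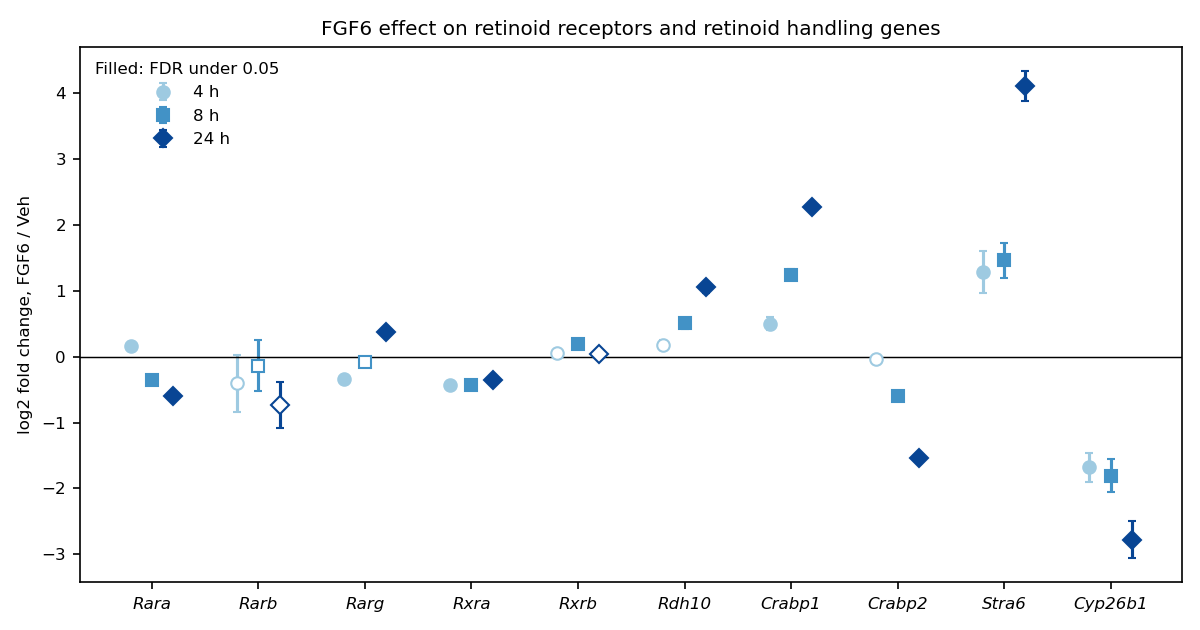
Log2 fold change of FGF6 over vehicle at 4, 8, and 24 h for the 10 genes, with the standard error of edgeR's quasi-likelihood fit. Filled symbols passed an FDR of 0.05 and open symbols did not. Stra6 rises to 4.11 and Cyp26b1 falls to -2.78 at 24 h, and Rara and Rarg cross the zero line in opposite directions.

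To ask whether a response changed between time points, the FGF6 effects were tested against each other in the same fit. From 4 to 8 h, the effect moved upward for 4 of the 10 genes (Crabp1, Rdh10, Rarg, and Rxrb) and downward for Crabp2 and Rara, against 15.5% and 15.1% of all genes. From 8 to 24 h, it moved upward for 4 (Stra6, Crabp1, Rdh10, and Rarg) and downward for 3 (Crabp2, Rara, and Rxrb), against 22.6% and 22.5%. In at least 1 of these intervals the effect differed for 7 of the 10 genes and for 57.0% of all genes. Without replicate 3 of Veh 24h, the latter counts were 4 and 4, with Cyp26b1 added. Stra6 was the gene with the largest later difference, 2.64 on the log2 scale (SE 0.39, edgeR adjusted p = 3.67e-06), while its difference between 4 and 8 h was 0.17 (SE 0.44, edgeR adjusted p = 0.815). For Rxra, the effects at 4 and 8 h differed by -0.00 (95% interval -0.12 to 0.11) and those at 8 and 24 h by 0.07 (-0.04 to 0.18). For Cyp26b1, the additional fall after 8 h was -0.98 (SE 0.40, edgeR adjusted p = 0.0516), with an interval from -1.76 to -0.19. It passed without replicate 1 of Veh 8h (-1.06), replicate 3 of FGF6 8h (-1.08), replicate 3 of Veh 24h (-1.04), or replicate 1 of FGF6 24h (-1.46).

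Some of these genes also changed in vehicle-treated cells over the time course. From 4 to 8 h, Rxrb rose and Rara, Rarg, and Rdh10 fell, 1 gene upward and 3 downward where 21.2% and 21.7% of all genes did so. From 8 to 24 h, Crabp1, Rarg, and Rarb rose and Rdh10 fell, 3 and 1 against 25.5% and 23.7% of all genes. The vehicle level of Crabp1 rose 2.16-fold after 8 h (log2 fold change 1.11, SE 0.09, edgeR adjusted p = 1.61e-10), in the same direction as under FGF6. The vehicle level of Rdh10 fell by 0.34 on the log2 scale between 4 and 8 h (edgeR adjusted p = 0.00128) and by 0.41 between 8 and 24 h (edgeR adjusted p = 0.000337), and these falls passed whichever library was left out. The rise of Rarb (log2 fold change 0.86, SE 0.35, edgeR adjusted p = 0.0432) had overlapping libraries, and it did not pass without replicate 1 (0.49) or 3 (0.94) of Veh 8h or without replicate 1 (0.75) or 3 (0.70) of Veh 24h. Between 4 and 8 h, the call of Rara was lost without replicate 1 of Veh 4h or replicate 1 or 3 of Veh 8h (-0.10 to -0.15), that of Rarg without replicate 1 or 2 of Veh 4h or 2 or 3 of Veh 8h (-0.08 to -0.11), and that of Rxrb without replicate 2 or 3 of Veh 4h or 2 of Veh 8h (0.10 to 0.11).

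To compare genes with each other, counts were divided by the exonic length of the gene, which gives RPKM. In vehicle, Rarg had the highest level per length at all times (28.7 ± 0.777 RPKM at 4 h; SD, n = 3), followed at 4 h by Rxra (20.6 ± 0.973) and Crabp2 (20.3 ± 2.06), which overlapped. Rxrb (15.9 ± 0.501), then Crabp1 (12.6 ± 0.965) and Rara (12.0 ± 0.676), which again overlapped, held the middle of the order. Rdh10 lay at 3.99 ± 0.39 RPKM, Cyp26b1 at 0.523 ± 0.067 RPKM, and Rarb (0.0818 ± 0.0262) and Stra6 (0.0628 ± 0.00965) were last and overlapped. In FGF6 at 24 h, Crabp1 led with 131 ± 3.59 RPKM, ahead of Rarg at 38.2 ± 1.52 RPKM, and Cyp26b1 was last at 0.061 ± 0.034 RPKM, below Rarb at 0.108 ± 0.00923 RPKM. Stra6 had passed both of them at 1.52 ± 0.156 RPKM. No neighbors overlapped in FGF6 at 24 h. With the length of the longest transcript in place of all exonic bases, Rarg stayed first in the vehicle groups and Crabp1 in FGF6 at 24 h, but the order of Rxra, Rxrb, and Crabp2 in vehicle changed.

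Within the families, the makeup shifted under FGF6. Rarg made up 70.4% ± 0.66 of the summed level of the RAR genes in vehicle and 62.7% ± 1.07 in FGF6 at 4 h, 70.9% ± 0.876 and 74.7% ± 0.639 at 8 h, and 72.0% ± 0.64 and 83.4% ± 1.11 at 24 h (SD, n = 3). The share of Rara went the other way, to 16.3% ± 1.13 in FGF6 from 27.6% ± 0.501 in vehicle at 24 h, and Rarb stayed below 0.565% in every library. The summed RAR level was lower in FGF6 at 4 and 8 h and higher at 24 h. It was 40.8 ± 1.39 RPKM in vehicle and 36.1 ± 0.978 RPKM in FGF6 at 4 h, and 37.7 ± 1.28 and 33.7 ± 1.30 RPKM at 8 h. At 24 h, the sum was 41.1 ± 1.50 RPKM in vehicle and 45.8 ± 1.74 RPKM in FGF6. Rxra held 56.4%, 54.5%, and 54.6% of the sum of Rxra and Rxrb in vehicle and 48.3%, 43.7%, and 47.6% in FGF6 at 4, 8, and 24 h. These RXR shares depend on the length used, and by the longest transcript Rxra was below Rxrb in vehicle too (48.8% at 4 h), although it was lower in FGF6 (40.7%) by that length as well. Crabp1 rose from 61.1% ± 1.52 of the CRABP level in vehicle to 95.7% ± 0.292 in FGF6 at 24 h, while the summed CRABP level went from 44.4 ± 0.433 to 137 ± 3.58 RPKM.

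**Figure D3:**
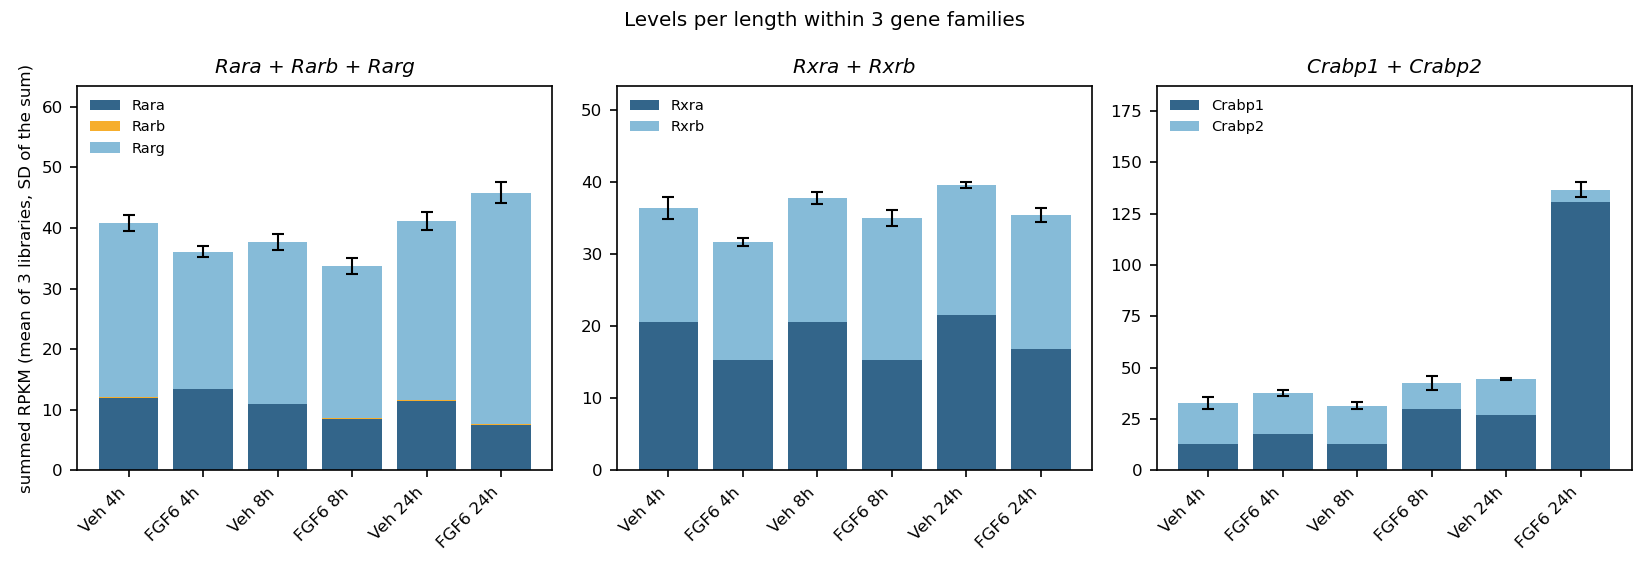
Summed RPKM of the RAR, RXR, and CRABP genes in the 6 groups, stacked by gene as the mean of 3 libraries, with the SD of the sum. The RAR and RXR sums stay between 31.7 and 45.8 RPKM, whereas the CRABP sum reaches 137 RPKM in FGF6 at 24 h, nearly all of it Crabp1.

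Other genes of the pathway were followed by lists of enzymes and receptors, also chosen with earlier results of these data known. Of 19 genes for retinol and retinaldehyde enzymes, 16 were tested, and under FGF6 4 rose and 8 fell at 4 h, 4 rose and 12 fell at 8 h, and 3 rose and 12 fell at 24 h. Of all genes tested, 28.6%, 32.4%, and 35.9% rose and 34.2%, 38.4%, and 37.9% fell at these times. The median log2 fold change of these 16 was -0.61, -0.79, and -1.11, where all genes tested had -0.05, -0.05, and -0.02. Aldh1a3, which makes retinoic acid from retinaldehyde, rose from 4.19 ± 0.80 to 57.5 ± 0.90 CPM at 4 h (SD, n = 3; log2 fold change 3.77, SE 0.11, edgeR adjusted p = 1.72e-19), and was at 1.64 and 20.5 CPM at 8 h and at 0.437 and 1.05 CPM at 24 h. Its difference was therefore largest at the early times, and its level fell with time in both groups. Aldh1a1, another enzyme of this step, fell at 24 h from 8.40 ± 1.02 to 0.351 ± 0.139 CPM (log2 fold change -4.56, SE 0.23, edgeR adjusted p = 1.85e-15), and Aldh1a7 from 19.2 ± 1.34 to 0.29 ± 0.0947 CPM (log2 fold change -6.03, SE 0.23, edgeR adjusted p = 6.32e-18). Aldh1a1 and Aldh1a7 are closely related in sequence. How reads with several positions were treated is not given, so the split of reads between them is uncertain. Adh1, an alcohol dehydrogenase that accepts retinol, fell from 6.12 ± 0.628 to 0.254 ± 0.111 CPM at 24 h (log2 fold change -4.57, SE 0.25, edgeR adjusted p = 1.2e-14). In all, 9 enzymes of the list had a fall of at least 2-fold with non-overlapping libraries at some time, and Aldh1a3 was the 1 gene with such a rise. The share of all genes that meet this rule at some time was not computed. At 4, 8, and 24 h, 6, 7, and 8 of the 16 fell at least 2-fold, against 6.38%, 10.9%, and 15.3% of all genes. At each time 1 of the 16 rose as much, against 4.96%, 7.39%, and 7.44%. Dhrs3, which reduces retinaldehyde back to retinol, is also on the list of retinoic acid-induced genes and fell by 1.84, 2.38, and 1.23 on the log2 scale at 4, 8, and 24 h.

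**Figure D4:**
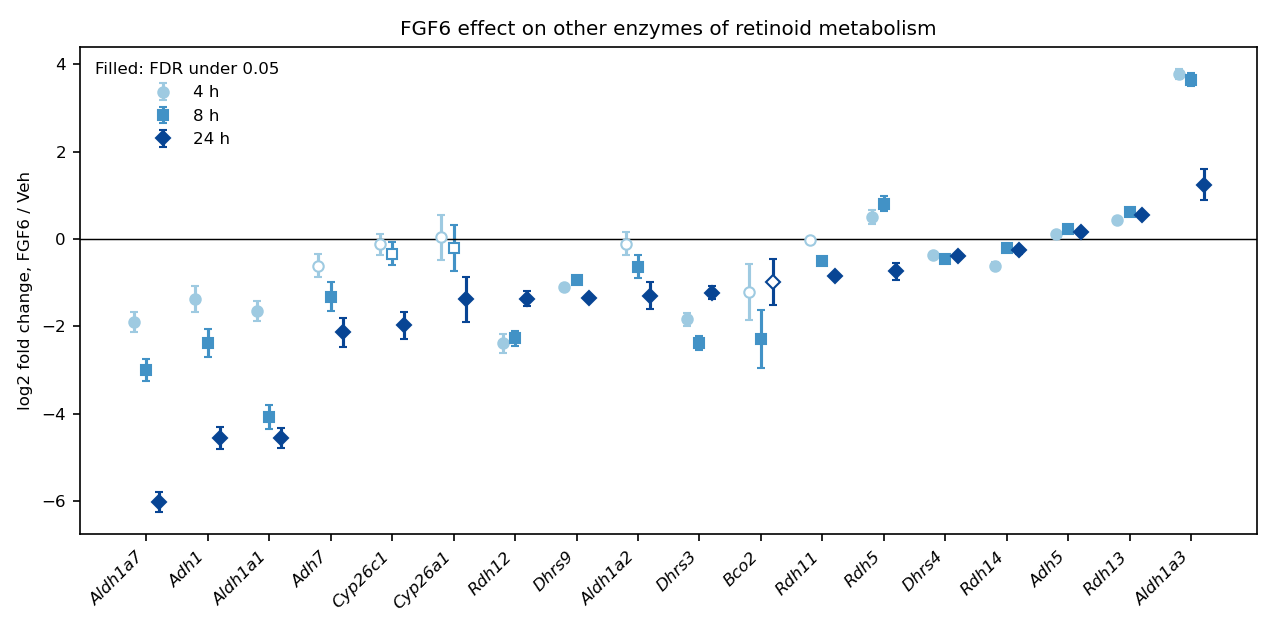
Log2 fold change of FGF6 over vehicle at 4, 8, and 24 h for 16 retinol and retinaldehyde enzymes and 2 CYP26 genes, ordered by the value at 24 h, with the standard error of edgeR's fit. Filled symbols passed an FDR of 0.05. Aldh1a3 stands alone above a log2 fold change of 1, and Aldh1a7, Adh1, and Aldh1a1 lie below -4 at 24 h.

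The other CYP26 genes, Cyp26a1 and Cyp26c1, did not pass at 4 and 8 h, and both were lower in FGF6 at 24 h. Cyp26c1 went from 1.98 ± 0.295 CPM in vehicle to 0.495 ± 0.122 CPM (SD, n = 3; log2 fold change -1.98, SE 0.32, edgeR adjusted p = 3.72e-06). Cyp26a1 went from 0.407 ± 0.213 to 0.157 ± 0.0186 CPM (log2 fold change -1.38, SE 0.52, edgeR adjusted p = 0.0192) on 3 to 21 counts per library. Of 12 genes for retinol uptake, storage, and binding, 5 were tested, and at 4, 8, and 24 h 1 rose, with 1, 2, and 1 lower. Of all genes tested, 28.6%, 32.4%, and 35.9% were higher and 34.2%, 38.4%, and 37.9% lower at these times. The gene that rose was Fabp5, a fatty acid binding protein that can also carry retinoic acid, with log2 fold changes of 0.17, 0.47, and 0.50. Rbp4, the blood carrier of retinol, fell at 8 h from 1.86 ± 0.509 to 0.834 ± 0.169 CPM (log2 fold change -1.14, SE 0.24, edgeR adjusted p = 0.000183). It did not pass at 4 and 24 h. Dgat1, also of this list, was lower at 4, 8, and 24 h, with log2 fold changes of -0.25, -0.40, and -0.24.

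Of 14 genes that encode partner receptors of RXR or the third RXR, Rxrg, 9 were tested. Under FGF6, none rose and 4 fell at 4 h. At 8 h, 3 rose and 4 fell, and at 24 h, 1 rose and 4 fell. Of all genes tested, 28.6%, 32.4%, and 35.9% were higher and 34.2%, 38.4%, and 37.9% lower, and 4 of 9 lower is near the latter shares. Falls of at least 2-fold were found in 1, 4, and 3 of the 9 at 4, 8, and 24 h, against 6.38%, 10.9%, and 15.3% of all genes. None rose as much, against 4.96%, 7.39%, and 7.44%. At 24 h, Vdr, the vitamin D receptor, went from 82.0 ± 1.59 to 12.3 ± 0.454 CPM (SD, n = 3; log2 fold change -2.73, SE 0.07, edgeR adjusted p = 5.09e-22). Pparg, the receptor of adipogenesis, went from 78.5 ± 2.20 to 19.0 ± 0.293 CPM (log2 fold change -2.04), and Thra, a thyroid hormone receptor, from 113.2 ± 0.918 to 30.1 ± 0.388 CPM (log2 fold change -1.91). Rxra changed by -0.36 in the same libraries. Of 14 receptor coregulators, all tested, 2 rose and 6 fell at 4 h, 1 rose and 7 fell at 8 h, and 6 rose and 4 fell at 24 h, none by 2-fold, where 28.6%, 32.4%, and 35.9% of all genes were higher and 34.2%, 38.4%, and 37.9% lower.

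Of 16 genes that retinoic acid induces in many cells, 12 were tested, with 3 higher and 5 lower at 4 h, 2 and 5 at 8 h, and 1 and 7 at 24 h, against the same shares of all genes. Their median log2 fold change was 0.07, -0.23, and -0.48. Rai14 rose at all times, most at 8 h, from 96.0 ± 2.65 to 436.0 ± 3.50 CPM (SD, n = 3; log2 fold change 2.18, SE 0.03, edgeR adjusted p = 6.34e-26). Ret, a receptor tyrosine kinase, rose at 4 h (log2 fold change 1.15) and 8 h (0.62), with -0.08 at 24 h. Rarres1 fell at all times, and at 24 h from 3.50 ± 0.176 to 0.146 ± 0.0744 CPM (log2 fold change -4.55, SE 0.25, edgeR adjusted p = 1.44e-14). Rarres2, which encodes the adipokine chemerin, fell at 24 h, with 142 counts over the vehicle libraries and 5 over the FGF6 libraries, a ratio of 27.5 (exact 95% interval 11.5 to 85.9, counting error only). Without replicate 3 of Veh 24h, the counts of this list at 24 h were 1 and 8, those of the enzymes 3 and 12, and those of the coregulators 6 and 3.

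Markers of the labelled cell type were present. Of 8 preadipocyte and stromal markers, Dlk1 was at 0 in all libraries, and the summed level of the list lay between 3719 and 6189 CPM in vehicle. In FGF6 it was lower, at 2344 to 2445 CPM at 4 h, 2824 to 2998 CPM at 8 h, and 1380 to 1454 CPM at 24 h. Col1a1 alone averaged 2237, 3514, and 3107 CPM in vehicle and 1197, 1585, and 443.3 CPM in FGF6 at 4, 8, and 24 h. At 24 h, 7 of 7 tested markers fell, where 37.9% of all genes did. Their log2 fold changes ran from -0.19 for Thy1 to -3.78 for Zfp423. The 6 mature adipocyte markers, with Lep at 0, summed to 155.6 to 178.1 CPM in vehicle and 63.4 to 70.1 CPM in FGF6 at 24 h. Fabp4 alone made up nearly all of that sum (160.1 and 66.9 CPM at 24 h), and the other 3 tested markers, Adipoq, Plin1, and Cidec, were at 0.612, 0.864, and 4.32 CPM in vehicle at 24 h, with Adipoq and Plin1 at 0 counts and Cidec at 0.168 CPM in FGF6. Cidea held at most 1 count in any library. The lists for endothelial cells (at most 4.30 CPM), epithelial cells (at most 2.57 CPM), muscle precursors (at most 8.20 CPM), and blood cells (at most 18.5 CPM) were low throughout, but single markers on them moved with FGF6. Cdh5, an endothelial cadherin, rose at all times and went from 0.0582 to 3.59 CPM at 24 h, while Pecam1, Tek, and Emcn did not pass the filter on low counts. At 24 h the vehicle libraries together held 5 counts of Cdh5 and the FGF6 libraries 297. The keratin genes Krt8 (0.126 and 0.907 CPM at 24 h) and Krt18 (0.0234 and 0.873 CPM) rose at all times, and Epcam and Cdh1 did not pass the filter. The vehicle libraries together held 0 counts of Krt18 at 8 h and 2 at 24 h, and the FGF6 libraries 43 and 72. The sizes of these rises are therefore uncertain. Myog, a myogenic factor, fell at all times, from 3.57 to 0.364 CPM at 24 h, and Myod1 fell at 4 and 24 h, with Myf5 at 0 in all libraries. Of the blood cell markers, Csf1r fell at all times, and Cd68 rose at 4 and 8 h and fell at 24 h. The part of these markers, and that of the stromal and adipocyte markers, in the changes of the retinoid genes was not tested.

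The genes whose pattern was most like those of Stra6 and Cyp26b1, the members with the largest rise and fall at 24 h, were found by Pearson's r of log2 CPM over the 18 libraries, as a description. For Stra6 they were Reep4 (0.974), Pafah1b2 (0.974), and Cbwd1 (0.974), and for Cyp26b1 they were Prrx2 (0.970), Ddit3 (0.969), and Liph (0.968). The libraries share the treatment and time groups, which any responsive gene follows.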

How the data were processed

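RNA-seq of 18 libraries in 6 groups of 3 was used, grouped by the labels of the samples. The authors aligned reads to GRCm38.p4 with STAR, obtained gene counts from Subread featureCounts, and deposited these raw counts without normalization. Versions, strand setting, and treatment of reads with several positions are not given in the sources used here. The dose came from the supplementary text.

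Genes were filtered with edgeR's filterByExpr (15071 of 48023 kept). TMM factors (0.951 to 1.05) came from edgeR 4.0.16 under R 4.3.3, which fitted its quasi-likelihood model to 6 group means without covariates, with Benjamini-Hochberg adjustment over all genes tested and an FDR of 0.05 in place of the study's 0.25. The standard error is the one implied by the F statistic. RPKM used exonic lengths from GENCODE M21, which held 98.5% of the identifiers. Depth is 24327816 to 33471980 counts per library, and floors of 3 counts cover counting error only. With 3 against 3 libraries, an exact permutation test cannot go below 0.1, so calls rest on the shared fit. The fit was also run on simulated counts in which few genes changed, and only at 24 h. Most genes passed in these data, so that run does not test the calls under these conditions.

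The genes, lists, and motifs were chosen with earlier results of these data known. Named genes are the 10 genes, plus from each list up to 3 rises and 3 falls that passed the FDR, changed at least 2-fold, and did not overlap, plus the 3 genes most alike to the largest rise and fall. Fabp5, Dgat1, the single cell type markers, and the values on replicate 3 of Veh 24h were added after values were seen. So were the counting interval of Rarres2 and the counts of Cdh5 and Krt18.

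Alternatives were limma 3.58.1 with voom, DESeq2 1.42.0, upper-quartile factors or unscaled totals, no filter or a minimum of 10 counts per library, fits on the compared times alone, a block for the replicate number, other thresholds, longest-transcript lengths, and leaving out each library.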

Additional observations from a re-analysis of the deposited data

Results flagged for a closer look

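The FGF6 effect differed between 4 and 8 h, between 8 and 24 h, or both for 7 of the 10 genes in edgeR's quasi-likelihood test of the difference itself, as it did for 57.0% of all genes. The differences are given on the log2 scale. Between 4 and 8 h the effect on Crabp1 grew by 0.74 (edgeR adjusted p = 8.31e-05), that on Crabp2 moved by -0.56 (edgeR adjusted p = 6.6e-05), and that on Rara by -0.52 (edgeR adjusted p = 2.33e-05). In the same interval the effect on Rarg moved by 0.26 (edgeR adjusted p = 0.000751), that on Rdh10 by 0.33 (edgeR adjusted p = 0.0255), and that on Rxrb by 0.15 (edgeR adjusted p = 0.0384). Between 8 and 24 h the effect on Stra6 moved by 2.64 (edgeR adjusted p = 3.67e-06), Crabp1 by 1.02 (edgeR adjusted p = 6.16e-08), Crabp2 by -0.94 (edgeR adjusted p = 6.69e-08), and Rdh10 by 0.55 (edgeR adjusted p = 0.000367). Rarg moved by 0.45 (edgeR adjusted p = 2.05e-07), Rara by -0.24 (edgeR adjusted p = 0.0204), and Rxrb by -0.15 (edgeR adjusted p = 0.0229).

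The difference of Rdh10 between 4 and 8 h passed in 6 of the 12 fits that left out a library (0.26 to 0.43) and was lost without Veh 4h replicate 1, FGF6 4h replicate 1 or 2, Veh 8h replicate 2 or 3, or FGF6 8h replicate 1. That of Rxrb passed in 5 of 12 (0.12 to 0.17) and was lost without Veh 4h replicate 1, FGF6 4h replicate 1 or 3, Veh 8h replicate 1 or 3, or FGF6 8h replicate 1 or 2. Between 8 and 24 h, the difference of Rara passed in 7 of 12 fits (-0.34 to -0.21) and was lost without Veh 8h replicate 3, FGF6 8h replicate 1 or 2, Veh 24h replicate 1, or FGF6 24h replicate 1. That of Rxrb passed in 10 of 12 (-0.20 to -0.14) and was lost without Veh 8h replicate 1 or FGF6 8h replicate 1. The remaining 9 differences passed in all 12 fits. Groups of 3 libraries were not tested for outliers.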

How the results depend on the processing

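The rises of Stra6 and Crabp1 and the falls of Cyp26b1 and Rxra passed at 4, 8, and 24 h under every alternative fit that could be run for them and without any library, as did the calls of Crabp2 and Rdh10 at 8 and 24 h, apart from the 2-fold threshold. That was 8 fits, but 7 for Stra6 and Cyp26b1, which a minimum of 10 counts in every library removes. Of the results for FGF6 against vehicle, 167 of those with a library left out kept direction and call, 2 lost the call, 7 gained it, and 4 changed sign. Rdh10 at 4 h gained its call in 6 of 8 fits, with limma (0.18, adjusted p = 0.0489), DESeq2 (0.20, adjusted p = 0.0334), no filter (0.18, edgeR adjusted p = 0.0465), at least 10 counts (0.20, 0.0301), only the libraries of that time (0.22, 0.022), and the replicate block (0.18, 0.0331).

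Signs turned for differences that had not passed, and the cause was not tested. At 4 h Rxrb had -0.054 with library sizes alone and -0.009 with upper-quartile factors, and Crabp2 had 0.002 with only the libraries of that time and -0.11 to 0.03 with a library left out. At 8 h Rarb had 0.019 with limma and -0.51 to 0.26 with a library left out. For the effect at 8 h minus that at 4 h, Rxra had 0.010 with DESeq2, 0.034 with library sizes alone, 0.008 with upper-quartile factors, and 0.014 with only those libraries, and with a library left out Rxra had -0.049 to 0.018, Cyp26b1 -0.26 to 0.01, and Rarb -0.11 to 0.66. For vehicle at 8 h against 4 h, Rxra had -0.006 with DESeq2 and -0.010 with only those libraries, Crabp1 had 0.021 with library sizes alone and 0.006 with upper-quartile factors, and with a library left out Rxra had -0.015 to 0.046, Crabp1 -0.12 to 0.12, and Rarb -0.12 to 0.65. For vehicle at 24 h against 8 h, library sizes alone gave Rara -0.011, Rxra -0.013, and Rxrb -0.014, and Stra6 had -0.61 to 0.14 with a library left out.

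Counts of the 10 genes moved as follows. With a threshold of 2-fold in addition, 1 rose and 1 fell at 4 h (1710 of all genes), 2 and 1 at 8 h (2759), 3 and 2 at 24 h (3431), 0 and 0 for 8 h minus 4 h (526), 2 and 0 for 24 h minus 8 h (1280), 0 and 0 for vehicle 8 h against 4 h (341), and 1 and 0 for vehicle 24 h against 8 h (675). With an FDR under 0.25, vehicle at 8 h had 2 rising and 5 falling (29.8% and 29.6% of all genes), vehicle at 24 h 5 and 2 (34.4% and 32.6%), and 7397 of all genes passed for 8 h minus 4 h. Library sizes alone left 1 falling for 24 h minus 8 h and for vehicle at 8 h, where upper-quartile factors also left 1 and no filter left 0 rising. For vehicle at 24 h they gave 1 rising and 2 falling, and upper-quartile factors 2 falling. With a library left out, 2 to 4 rose for 8 h minus 4 h, 1 to 4 fell for 24 h minus 8 h, and in vehicle at 8 h 0 to 1 rose and 1 to 3 fell. The lowest counts came without Veh 4h replicate 1, FGF6 4h replicate 1, Veh 8h replicate 3, or FGF6 8h replicate 1 (2 rising for 8 h minus 4 h), without FGF6 8h replicate 1 (1 falling for 24 h minus 8 h), without Veh 4h replicate 2 or 3 or Veh 8h replicate 2 (0 rising in vehicle at 8 h), and without Veh 8h replicate 3 (1 falling there).

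Library sizes alone moved the median of all genes at 4 h by -0.10 and gave 3242 higher and 6495 lower genes, against 4308 and 5152. Same-numbered libraries of FGF6 and vehicle at a time deviated together with correlations of -0.0275 to 0.0486. Pairs with different numbers had -0.0446 to 0.0489. Such deviations from means of 3 libraries cannot show whether same-numbered libraries shared a culture or a batch. The labels do not say. The replicate block gave 9465, 10686, and 11116 called genes at 4, 8, and 24 h against 9460, 10664, and 11115, and among the 10 genes it added the calls of Rdh10 at 4 h and Rarg at 8 h (-0.08). Rarb, Stra6 in vehicle, and Cyp26b1 in FGF6 rest on few counts, which limits their precision.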
